A study of Rattus norvegicus with 8 samples.

Results

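Immediate early genes are the transcripts that neurons induce within minutes of synaptic activity, without new protein synthesis. The 10 members described here were the rows whose symbol in the deposited tables is Fos, Fosb, Jun, Junb, Egr1, Arc, Npas4, Nr4a1, Ier2 or Dusp1, out of 26405 genes, and each matched 1 Ensembl identifier. RNA was sequenced from rat embryonic hippocampal neurons kept for 10 to 14 days in microfluidic chambers, which separate axons from cell bodies by narrow grooves. The 8 samples form 4 groups of 2: axons Abeta, axons control, soma Abeta and soma control. In the Abeta groups soluble oligomers of the amyloid peptide Abeta(1-42) had been put on the axons alone for 24 h, and the control groups had received vehicle there. The soma samples are from the cell body compartment. Separate cultures are not stated for the duplicates, and the spread behind each p-value may therefore be technical.

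In this pathway, glutamate receptors and voltage-gated calcium channels admit calcium, kinases carry the signal to the nucleus, and the factors CREB, SRF and MEF2 start transcription at promoters that are already poised. The first products are mostly transcription factors (AP-1 subunits of the Fos and Jun families, Egr1, Npas4, Nr4a1), which then switch on later genes. Arc differs in that its protein acts at synapses and its mRNA is carried into dendrites, and Dusp1 is a phosphatase that switches the kinases off again. In hippocampal neurons these transcripts are short-lived and serve as a record of recent activity, and several are induced in glia and fibroblasts as well.

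The deposited data are the authors' comparison of the treatments in each compartment, without naming the numerator, so each fold change keeps its deposited sign and no side can be given a treatment. Reads per library were recovered from the deposited means. Libraries are called positive-side 1 and 2 and negative-side 1 and 2, from the sign of the deposited fold change of genes read in that library alone, with number 1 for the larger size factor. They cannot be matched to a sample title and enter no test between treatments. Recovered reads numbered 231854 to 425420 per axonal library. In soma the libraries numbered 1 held 2699568 and 3661660 reads and are called deep, and those numbered 2 held 263117 and 290371 and are called shallow. A single read is worth 0.756 to 1.35 normalized counts in an axonal library, 0.337 and 0.267 in the deep and 3.37 and 3.13 in the shallow somatic ones. Member values in a library rest on 0 to 64 reads in axons and 1 to 216 in soma.

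Neuronal markers had reads in both compartments for 11 of 11 matched genes, and astrocyte markers for 11 of 11. In axons the summed astrocyte markers reached 3632 and 4072 normalized counts on the positive side but 661 and 1063 opposite, with 6 of 11 called on the positive side (DESeq2). The 9 fibroblast markers summed to 1459 and 2195 against 292 and 281 there, with 4 called, and the neuronal markers to 690 and 747 against 473 and 958, with 0 called. The 9 microglial markers summed to 65.0 and 30.5 against 102 and 161, the 8 oligodendrocyte lineage markers to 63.5 and 44.6 against 74.6 and 33.8, and the 5 endothelial and mural markers to 2.27 and 7.83 against 26.3 and 27.0, with 0 called in each list. No marker of these lists was at 0 in axons, and Cldn5 and Kcnj8, both of endothelial and mural cells, were at 0 in soma. In bulk samples, fewer cells of a type and less RNA per cell cannot be told apart.

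No immediate early gene was called between treatments in either compartment, and the members were spread unevenly over libraries. None of the 10 members (0) had an adjusted p in the authors' deposited axonal table, because adjusted values were given only to 1321 genes with a mean of at least 44.8 normalized counts and the members' means ran from 4.35 to 25.8. Of the genes with an adjusted axonal p, 23.0% were called, and none of these could be a member. At an unadjusted p under 0.05 the authors' deposited axonal table (DESeq2) held 1 of 10 members, Jun, against 4.45% of all genes with axonal reads and 2.61% of genes with means of 4 to 100 on the positive side. Of the 10 members 0 were called in the authors' deposited somatic table (DESeq2, smallest adjusted p = 1.00), against 0% of all genes, and 0 had an unadjusted p under 0.05 there, against 0.0105% of genes. The smallest unadjusted somatic p among members in the authors' deposited DESeq2 table was 0.288, for Dusp1.

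By sign alone, 7 of the 10 members lay on the positive side in axons and 10 of 10 in soma. Of the genes with means of 4 to 100, the range that spans the members, 48.0% lay above 0 in axons and 46.9% in soma. The median log2 fold change of the members was 0.45 in axons and 0.39 in soma, against medians of -0.04 and -0.02 for the genes of that range, in the authors' deposited tables. For genes whose somatic mean reached 100 the axonal median in the authors' deposited table was 0.44 on the log2 scale, and 5 of the 10 members lay above that shift. With the deep somatic pair alone, 7 of 10 members had the opposite sign in soma.

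**Figure D1:**
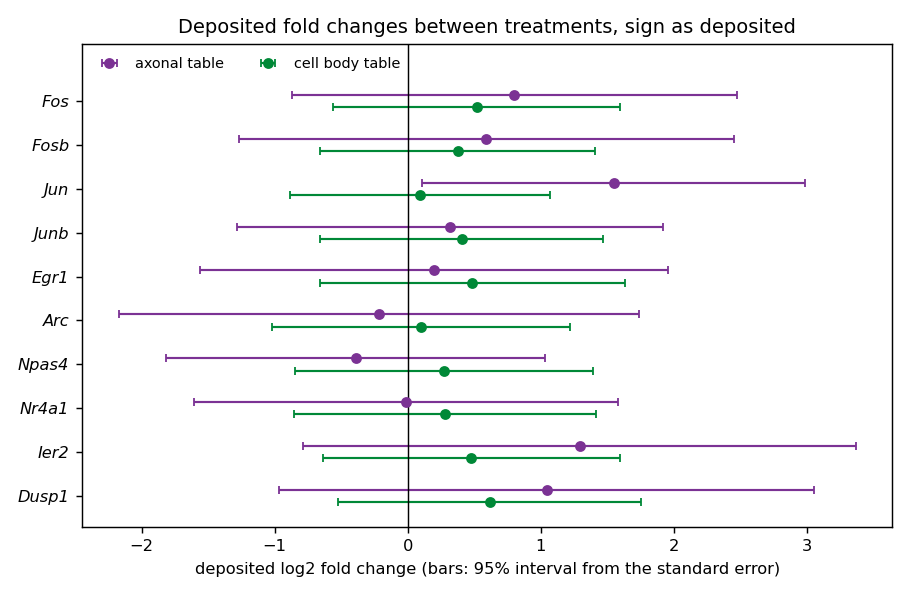
Deposited log2 fold change between treatments for each immediate early gene (x axis, log2 scale, sign as deposited) in the axonal and the cell body table, with 95% intervals from the deposited standard errors. Only the axonal interval of Jun, from 0.11 to 2.99, lies wholly above 0.

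The promoters of 7 members were in the RefSeq table of assembly GRCr8 (Fosb, Junb, Egr1, Npas4, Nr4a1, Ier2, Dusp1), as windows of 250 bases before to 50 after the start of the gene. They are shown because several members are textbook targets of CREB. The palindromic site of CREB, the cAMP response element TGACGTCA, and its core TGACG can be looked for in the windows on both strands. The full site was found in Dusp1 and Ier2, 2 of the 7, and in 1.83% of 33469 promoter windows of the same length. The core, which the full site holds on each strand, was found in 5 of the 7 (also in Egr1, Junb and Nr4a1) and in 21.2% of all windows. The CArG box bound by SRF was found in Egr1 alone, at 105 and 83 bases before the start, and in 1.64% of windows. The Egr site GCGNGGGCG was found in Nr4a1 alone (4.98% of windows), the AP-1 site TGANTCA in none of the 7 (7.33% of windows), and TATAAA in Fosb and Junb (14.2% of windows). A match of letters is a description and not a site in use. The lines below give, from RefSeq GRCr8 and 5′ to 3′ on the strand of the gene (the plus strand in each), Dusp1 at chr10:17184603-17184902, Ier2 at chr19:40399123-40399422 and Nr4a1 at chr7:134259888-134260187, with the core and the full element in capitals (CGTCA is the core read on the other strand).
Dusp1: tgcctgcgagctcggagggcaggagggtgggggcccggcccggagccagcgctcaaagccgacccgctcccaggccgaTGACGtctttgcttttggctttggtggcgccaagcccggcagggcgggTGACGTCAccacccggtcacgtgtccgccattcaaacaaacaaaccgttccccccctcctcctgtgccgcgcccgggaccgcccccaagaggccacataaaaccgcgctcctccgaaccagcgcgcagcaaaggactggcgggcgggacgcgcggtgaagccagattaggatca
Ier2: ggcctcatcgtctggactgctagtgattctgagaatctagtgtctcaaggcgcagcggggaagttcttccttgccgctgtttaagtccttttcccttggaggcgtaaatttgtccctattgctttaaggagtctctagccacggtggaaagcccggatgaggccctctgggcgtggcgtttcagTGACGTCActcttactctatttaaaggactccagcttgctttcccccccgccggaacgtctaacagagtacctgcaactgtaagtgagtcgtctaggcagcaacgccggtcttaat
Nr4a1: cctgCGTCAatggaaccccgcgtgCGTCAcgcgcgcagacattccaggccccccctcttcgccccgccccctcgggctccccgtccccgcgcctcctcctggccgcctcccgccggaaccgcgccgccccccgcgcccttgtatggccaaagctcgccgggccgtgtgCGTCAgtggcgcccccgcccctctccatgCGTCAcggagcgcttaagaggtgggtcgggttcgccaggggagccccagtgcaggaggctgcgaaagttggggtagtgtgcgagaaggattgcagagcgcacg
In Dusp1 the full element starts 124 bases before the gene and another core 172 bases before it. In Ier2 the full element starts 66 bases before the gene. Nr4a1 holds 4 cores, at 246, 226, 82 and 53 bases before the start, and no full element.

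Among the AP-1 subunits, Jun (a leucine zipper protein that pairs with Fos proteins or with itself) stood apart in axons. Positive-side axonal libraries held 28.7 and 50.1 normalized counts of Jun against 10.5 and 12.2 for the negative side, so the sides did not overlap. The axonal log2 fold change in the authors' deposited table was 1.55 (SE 0.74, unadjusted p = 0.0353, DESeq2) without an adjusted p. When the 8032 genes of mean 10 or more were adjusted together, 81 were called and the adjusted p of Jun was 0.458 (Benjamini-Hochberg on the deposited DESeq2 p-values). In soma Jun was the most even member, at 72.7 and 77.4 normalized counts on the positive side against 56.1 and 84.5 on the negative side. Its somatic log2 fold change in the authors' deposited table was 0.09 (SE 0.50), and the axonal minus somatic difference of 1.46 had a 95% interval from -0.28 to 3.20 (normal test of the difference, adjusted p = 1.00 over 18406 genes).

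Fos, the partner of Jun in the classic AP-1 dimer, had axonal counts of 9.83 and 33.6 (positive side) and 14.7 and 6.75 (negative side) after normalization. The high value of positive-side library 2 rested on 43 reads, and the sides overlapped. In soma Fos had 29.0 and 108 normalized counts on the positive side against 31.0 and 46.9 on the negative side, with the shallow library the higher of each side. Its log2 fold changes in the authors' deposited tables were 0.80 (SE 0.85) in axons and 0.52 (SE 0.55) in soma.

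Fosb, whose truncated splice form builds up in neurons after repeated stimulation, had axonal counts of 10.6 and 11.0 (positive side) and 4.20 and 8.10 (negative side) after normalization, without overlap. Its log2 fold changes in the authors' deposited tables were 0.59 (SE 0.95) in axons and 0.38 (SE 0.53) in soma. In soma it was almost absent from the deep libraries, with 0.337 normalized counts (1 read) and 0.534 (2 reads), and reached 16.8 (5 reads) and 6.26 (2 reads) in the shallow libraries of the positive and the negative side. All somatic values of Fosb rest on 10 reads in total. Junb, a Jun family member that often damps the activity of Jun, had 20.4 and 18.0 against 21.0 and 8.10 normalized counts in axons. In soma Junb had 28.3 and 53.9 normalized counts on the positive side against 29.1 and 21.9 on the negative side. The sides of Junb overlapped in both compartments, and its log2 fold changes in the authors' deposited tables were 0.32 (SE 0.82) in axons and 0.41 (SE 0.54) in soma.

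**Figure D2:**
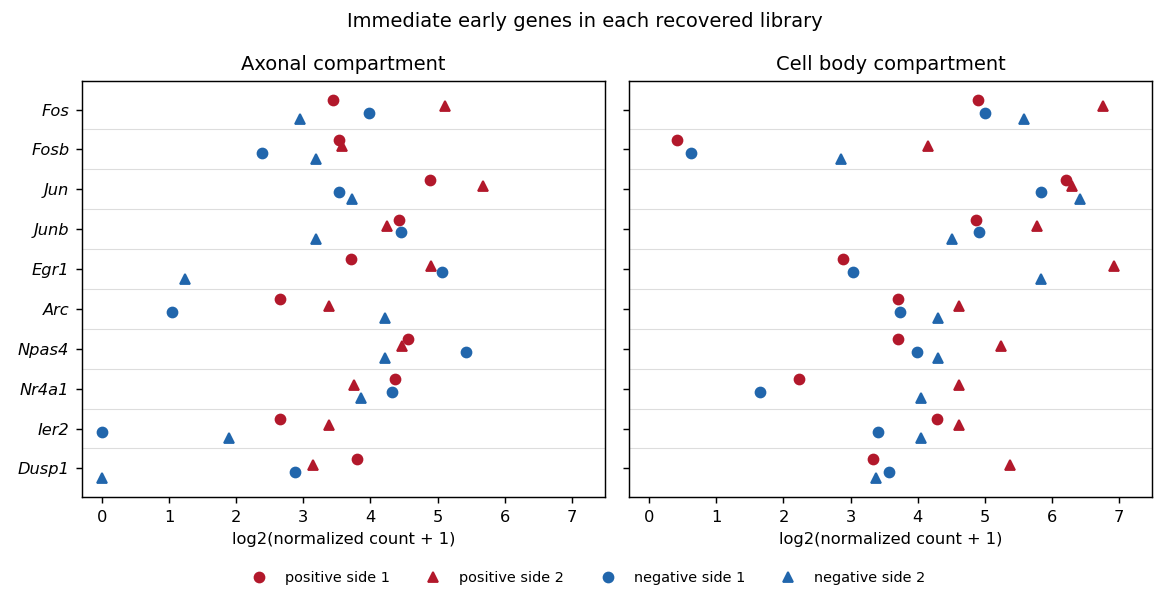
Normalized count of each immediate early gene in each recovered library (x axis, log2 of the count plus 1), axons left and cell bodies right, with colour for the side and symbol for the library number (in cell bodies circles are deep and triangles shallow libraries). Egr1, Fosb and Nr4a1 show both cell body triangles far to the right of both circles. Levels of different genes are not comparable, since transcript lengths differ.

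The other transcription factors were Egr1, Nr4a1 and Npas4. Egr1, a zinc finger protein that binds GC-rich sites, varied most within a side among the 8 members with reads in every axonal library. Its axonal normalized counts were 12.1 and 29.0 on the positive side against 32.6 and 1.35 on the negative side. The last value was a single read, and the 24.1-fold ratio of the negative-side libraries had a 95% counting interval from 4.02 to 983. In soma Egr1 had 6.40 and 7.21 normalized counts in the deep libraries of the positive and negative side and 121 and 56.3 in the shallow ones. The treatments overlapped in both compartments, with log2 fold changes in the authors' deposited tables of 0.20 (SE 0.90) in axons and 0.49 (SE 0.58) in soma.

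Nr4a1, an orphan nuclear receptor, was the most even member in axons, with 19.7 and 12.5 normalized counts on the positive side against 18.9 and 13.5 opposite. Its axonal log2 fold change in the authors' deposited table was -0.01 (SE 0.81, 95% interval from -1.60 to 1.58), and the somatic one 0.28 (SE 0.58). In soma it had 3.70 and 2.14 normalized counts in the deep libraries and 23.6 and 15.6 in the shallow ones, again with the positive side named first. Npas4, a basic helix-loop-helix factor that in neurons depends on calcium entry, had 22.7 and 21.1 against 42.0 and 17.6 normalized counts in axons. Its axonal log2 fold change of -0.39 (SE 0.73) in the authors' deposited table was the lowest of the 10, and the sides overlapped. In soma Npas4 had 12.1 and 37.0 normalized counts on the positive side against 15.0 and 18.8 on the negative side, and its somatic log2 fold change in the authors' deposited table was 0.27 (SE 0.57).

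The effector genes had few axonal reads. Arc, which promotes the removal of AMPA receptors from synapses, had 5.29 and 9.39 normalized counts on the positive side in axons against 1.05 and 17.6 on the negative side, where 1 and 13 reads were found. Both the lowest and the highest library were thus on the negative side, and the axonal log2 fold change in the authors' deposited table was -0.22 (SE 1.00). In soma Arc had 12.1 and 23.6 against 12.3 and 18.8 normalized counts, so its deep libraries were nearly equal, and its somatic log2 fold change in the authors' deposited table was 0.10 (SE 0.57).

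Dusp1, the phosphatase that inactivates MAP kinases, had 12.8 and 7.83 normalized counts on the positive side in axons, against 6.30 and 0 on the negative side, where 0 reads allow up to 4.05 normalized counts. Ier2, a nuclear protein of the immediate early response, had 5.29 and 9.39 against 0 and 2.70, where 0 reads allow up to 3.15. The sides did not overlap in axons for either gene, at axonal log2 fold changes of 1.04 (SE 1.03) for Dusp1 and 1.29 (SE 1.06) for Ier2 in the authors' deposited table. In soma Dusp1 had 9.09 and 40.4 normalized counts on the positive side against 11.0 and 9.38 on the negative side. Ier2 had 18.5 and 23.6 against 9.62 and 15.6 there, the only somatic case of sides that did not overlap. The somatic log2 fold changes in the authors' deposited table were 0.62 (SE 0.58) for Dusp1 and 0.48 (SE 0.57) for Ier2.

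In sum over members, both positive-side libraries lay above both negative-side ones for 4 of 10 in axons (Fosb, Jun, Ier2, Dusp1), against 22.9% of genes with means of 4 to 100, and the opposite order held for 0 of 10, against 23.3%. Ier2 and Dusp1 reached the lower mean of 4 only through the positive side, with negative-side means of 1.35 and 3.15. Their part in the count of 4 thus rests on that filter. In soma the counts were 1 of 10 against 9.15% of genes and 0 of 10 against 8.94%. The somatic count is near the background. The axonal cases stand beside the astrocyte and fibroblast markers given above, which were also higher in the positive-side libraries, and the part of those cells in the result was not tested. The test of the difference between axonal and somatic fold changes called 0 of 10 members, against 0.0326% of 18406 genes. At an unadjusted p under 0.05 that test gave 0 members, since the smallest p was 0.101, for Jun.

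The larger contrast in soma was between libraries of different depth. Both shallow libraries lay above both deep ones for 7 of 10 members (Fos, Fosb, Jun, Egr1, Arc, Npas4 and Nr4a1), against 31.2% of 10508 genes with somatic means of 4 to 100, and the opposite order held for 0 of 10, against 33.9%. This split of the libraries was chosen after seeing the data, does not follow a label and gets no test. Summed over both sides, Egr1 was 12.8-fold higher in the shallow libraries (95% counting interval 8.46 to 19.4), with 54 shallow and 46 deep reads. Fosb was 25.4-fold higher, with an interval from 5.80 to 152 that reflects 7 and 3 reads, and Nr4a1 was 6.87-fold higher (3.04 to 14.9). Intervals cover counting error only.

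The other members differed less between depths. Fos was 2.53-fold higher in the shallow libraries (1.80 to 3.49), Dusp1 2.40-fold (1.27 to 4.24) and Npas4 2.01-fold (1.12 to 3.40). For Jun (1.28-fold), Junb (1.30-fold), Ier2 (1.44-fold) and Arc (1.73-fold) the counting interval included 1. By the average log2 ratio of both sides, Egr1, Fosb and Nr4a1 lay above 1.81, the 95th percentile of the 10508 genes. Fosb and Nr4a1 reached the lower mean of 4 only through the shallow libraries, so for these genes the place among the 10508, and their part in the count of 7, rest on that filter. Egr1 was above 4 in the deep libraries as well and ranked 26. The members' median was 0.92, and that of all these genes -0.07. Within the positive side 10 of 10 members were higher in the shallow library, and within the negative side 8 of 10, with Junb and Dusp1 lower.

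**Figure D3:**
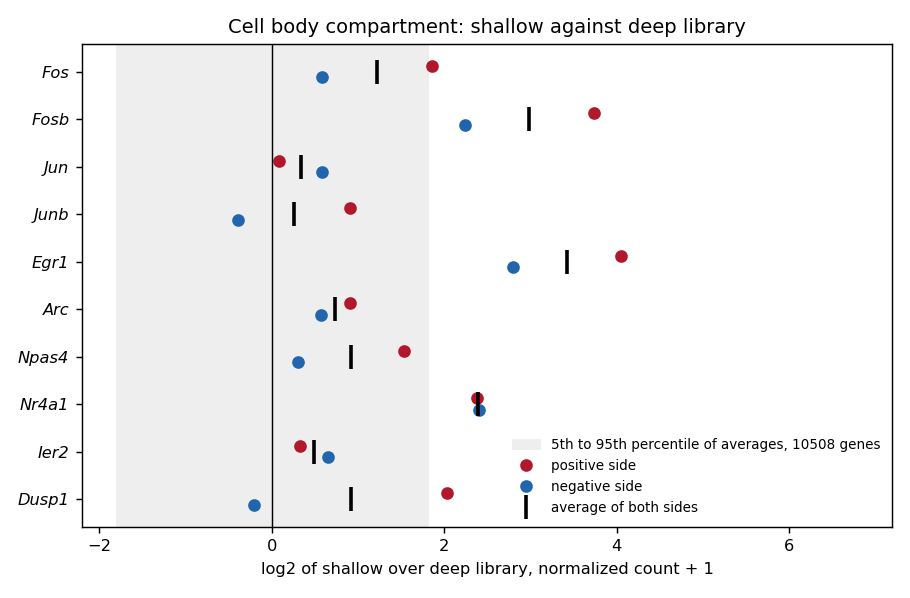
Log2 ratio of the shallow to the deep cell body library (normalized counts plus 1) for each immediate early gene, within the positive side, within the negative side and averaged, over a grey band from the 5th to the 95th percentile of the average among 10508 genes with means of 4 to 100. The averages of Egr1, Fosb and Nr4a1 lie to the right of the band, and the latter pair passed the lower mean only through the shallow libraries.

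Sums of cell type markers also differed between these libraries. The 9 fibroblast markers summed to 482 and 473 normalized counts in the deep somatic libraries and to 1495 and 1611 in the shallow ones. That rise in the sum did not hold gene by gene. Of 5 fibroblast markers within the mean range of the depth contrast, 2 had both shallow libraries above both deep ones. The opposite order held for 2, and the median log2 ratio of shallow to deep was -0.38. The 9 microglial markers summed to 1686 and 1275 against 926 and 810. Of 4 microglial markers in that range, 0 had the shallow libraries above and 3 had them below. The 8 astrocyte markers with recovered reads summed to 2947 and 2911 against 3734 and 3575, and the 10 neuronal ones to 4190 and 4597 against 4233 and 4057. Of 2 astrocyte markers in that range, 1 had the shallow libraries above and 0 had them below, with a median log2 ratio of 2.08. Of 3 neuronal ones 1 lay above and 1 below, with a median of 0.11. The 8 oligodendrocyte lineage markers stood at 102 and 105 against 118 and 93.8, and the 5 endothelial and mural ones at 2.69 and 5.34 against 3.37 and 0. Of 5 oligodendrocyte lineage markers in range, 2 lay above and 2 below. The part of other cells and of sequencing depth in the members' contrast was not tested.

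Taken within a depth, the treatments gave different pictures. In the deep pair 3 of 10 members (Jun, Nr4a1, Ier2) were higher on the positive side, against 47.8% of genes, with a median log2 difference of -0.07. In the shallow pair 9 of 10 were higher there (all but Jun), against 50.8% of genes, with a median of 1.02. The deep pair held 571 (positive side) and 651 (negative side) reads of members, and the shallow pair 156 and 94. Counting intervals of the ratio of sides included 1 for 8 of 10 members in the deep pair. The exceptions were Jun at 1.30-fold (1.07 to 1.58) and Ier2 at 1.93-fold (1.24 to 3.02). In the shallow pair they included 1 for 7 of 10, with Egr1 at 2.15-fold (1.19 to 4.03), Fos at 2.30-fold (1.21 to 4.56) and Dusp1 at 4.31-fold (1.16 to 23.8) outside. Each pair is 1 library against 1, so no replicate check exists within a depth, and whether the pairs differ was not tested.

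All 10 immediate early genes had reads in axons, as did 23879 of all 26405 genes. The axonal and somatic levels of 8 of the 10 overlapped. Over 4 libraries per compartment, pooled over treatments, the level of Fos was 50.4 ± 35.9 CPM (counts scaled to the recovered reads of the library) in axons and 59.2 ± 42.7 in soma (SD, n = 4 each). Jun had 78.4 ± 54.8 and 79.4 ± 15.7 CPM, Egr1 58.8 ± 46.4 and 53.3 ± 61.4, and Junb 53.0 ± 19.0 and 36.5 ± 16.5. The ranges of these 4 genes overlapped. Arc (26.1 ± 22.4 and 18.3 ± 6.64 CPM), Dusp1 (21.0 ± 16.4 and 19.3 ± 17.6) and Ier2 (13.4 ± 12.1 and 18.5 ± 6.98) overlapped as well.

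Npas4 and Nr4a1 were higher in each axonal library than in any somatic one. Npas4 had 81.7 ± 36.9 CPM in axons and 22.8 ± 13.1 in soma, a 3.59-fold ratio, and Nr4a1 50.9 ± 12.2 and 12.5 ± 11.5, a 4.06-fold ratio (SD, n = 4 each). Among 8593 genes with means of 4 to 100 in both tables, 8.05% had this order and 6.18% the opposite, which 0 of 10 members had. Fosb had 26.4 ± 9.15 CPM in axons and 6.70 ± 8.74 in soma, and the ranges overlapped. Against the deep somatic libraries alone the axonal ratio was 57.6 for Fosb, 16.3 for Nr4a1, 8.16 for Egr1 and 5.71 for Npas4, and against the shallow ones 2.04, 2.32, 0.592 and 2.62. The ratio of 57.6 for Fosb rests on 3 deep somatic reads. The direction for Egr1 thus turned with the somatic libraries used. It also turned for Fos (1.59 against the deep and 0.582 against the shallow ones), Jun (1.14 and 0.870) and Dusp1 (1.98 and 0.752). The tables were normalized separately, so no test was run between compartments.

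Axonal levels can be set beside genes that cell bodies did not show. The 5473 genes read in axons and never in soma had a median axonal mean of 1.35 normalized counts and a 95th percentile of 6.23. Of the 10 members 9 lay above that percentile and 6 above the 99th (10.0), and Ier2, at 4.35, lay above 89.0% of these genes. Those genes took 2.80% and 1.25% of axonal reads for the positive side, against 5.59% and 4.62%. They were picked for having no somatic reads. Of all 23879 genes with axonal reads, 8032 had a mean of at least 10, so a mean above that level is not particular to the members.

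**Figure D4:**
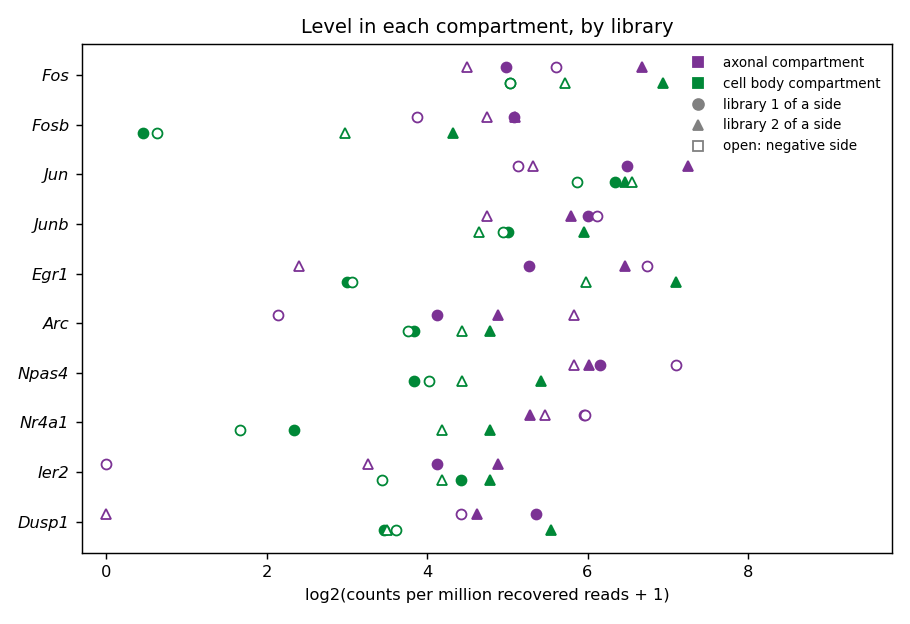
Level of each immediate early gene in CPM (x axis, log2 of the level plus 1) in 4 axonal and 4 cell body libraries, with open symbols for the negative side. For Npas4 and Nr4a1 the axonal symbols lie to the right of all cell body symbols, and for the other 8 genes they overlap.

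Other genes induced by activity were measured alongside. Of 60 such genes listed, 56 had a row and reads in both compartments. In axons 1 was called on the positive side and 0 on the negative side, of 3 with an adjusted p (DESeq2, background 23.0%). The called gene was Ctgf, a secreted matricellular growth regulator and a fibroblast product, whose axonal log2 fold change was 2.62 with SE 0.57 in the authors' deposited table (DESeq2, adjusted p = 0.000232). Ctgf had normalized counts of 123 and 360 in axons for the positive side, against 44.1 and 23.0, without overlap. Btg1, an antiproliferative factor, stood at 2.01 (unadjusted p = 0.0200) and Zfp36, which destabilizes mRNAs with AU-rich elements, at 2.19 (unadjusted p = 0.0287) in the authors' deposited DESeq2 table, both without an adjusted p. With Ctgf they made 3 of 56 genes at an unadjusted axonal p under 0.05 (DESeq2). That is near the 4.45% of all genes with axonal reads. Of the 56, 39 lay above 0 in axons (median 0.57) and 26 in soma (median -0.01), where 0 were called (DESeq2) and the smallest unadjusted p in the authors' deposited table was 0.218.

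The genes of this list with the highest somatic means were Scg2 (a granin of dense-core vesicles), Rgs4 (a brake on G protein signalling), Homer1 (a postsynaptic scaffold) and Plk2 (a kinase of synaptic scaling). Their axonal log2 fold changes in the authors' deposited tables were 0.92, 1.11, -0.77 and 0.95, and their somatic ones -0.20, -0.29, -0.30 and -0.17. In soma 0 of these 4 were called (DESeq2, background 0%), and in axons Scg2 alone had an adjusted p in the authors' deposited table (DESeq2, adjusted p = 0.256). In the depth contrast 16 of 44 genes of this list with somatic means of 4 to 100 had both shallow libraries above both deep ones (36.4%), near the 31.2% of all such genes. Dusp5 (2.36 and 2.67 normalized counts deep, 26.9 and 18.8 shallow) and Zfp36 (3.70 and 2.14 deep, 30.3 and 18.8 shallow) were highest in that contrast and Ptgs2 was lowest, at an average log2 ratio of -1.79. Dusp5 and Zfp36, like Egr3, Ier5l and Klf4 among the 16, reached the lower mean of 4 only through the shallow libraries. Ptgs2 reached it only through the deep ones. The place of these genes in the contrast rests on that filter. Dusp5 and Ptgs2 were named after their values were seen.

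Of 36 upstream regulators listed (glutamate receptors, calcium channels, kinases, CREB, SRF partners and MEF2 factors), 32 had a row. In axons 0 of the 5 with an adjusted p were called (DESeq2, background 23.0%), and in soma 0 of 32 (background 0%), where 0 had an unadjusted p under 0.05. Rps6ka3, a kinase that phosphorylates CREB, stood at 2.25 on the log2 scale in axons in the authors' deposited DESeq2 table (unadjusted p = 0.0132), and the other 31 had an unadjusted p of at least 0.05. This 1 of 32 stands against 4.45% of all genes with axonal reads at an unadjusted p under 0.05. Among those of highest somatic mean were Camk2b (a calcium-dependent kinase abundant in neurons) and Prkaca (the catalytic subunit of protein kinase A). In the authors' deposited tables the log2 fold changes of Camk2b were -0.56 in axons and 0.01 in soma, and those of Prkaca 0.16 in axons and -0.11 in soma. In the depth contrast 7 of 20 regulators had the shallow libraries above (35.0%), against 31.2% of all such genes.

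The mean profile of the members over the 8 recovered libraries was nearest to that of Ptprf (a receptor phosphatase), Azi1, Gpc1 (a cell surface proteoglycan), Eif3b (a translation initiation factor subunit) and Arid2 (a chromatin remodelling subunit), among 2955 named genes with means of at least 20 in both tables. Their root mean squared distance was 0.17 to 0.21 on the log2 scale, against a median of 0.70 over those genes. With 8 libraries of 2 tables, this is a description of shared highs and lows.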

How the data were processed

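Libraries had been made with the TruSeq RNA kit from total RNA, per the labels' protocols. The submitters' processing notes name DESeq2, TopHat2, Trim Galore and SAMtools. Versions, build, gene models, counter and strand use were not given in the sources used here. Reads of overlapping genes cannot be told apart. Per the file headers, the authors deposited for each gene a mean normalized count over 4 libraries (a signal, in which counts are divided by size factors), a log2 fold change, its error, a Wald score, a p-value and an adjusted p-value. No column held a single sample.

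Each deposited mean is a sum of 4 whole read counts times fixed units. Genes with 1 read gave the units, and the counts were solved within the rounding of the 15th digit. All means under 1000 had 1 solution. Shifted decoy values under 500 had 0 solutions, and 5.13% (axons) and 2.05% (soma) of decoys from 500 to 1000 had a solution. Genes with means above 1000 were left out of the recovered reads. Levels in CPM are recovered reads per library total. The recovery and the test of the difference were tested on simulated data.

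The main test was the authors' adjusted p under 0.05. The difference between compartments was tested as the difference of fold changes over its standard error, with Benjamini-Hochberg adjustment. A count of 0 was given an upper limit of 3 reads. Ratios of reads have exact (Clopper-Pearson) 95% intervals. Members, lists and the rule for named genes were chosen with earlier results of these data known. The rule named all members and, of other lists, genes with p under 0.05 and the 4 of highest somatic mean, of which some upstream regulators are not reported here. For genes without a symbol in the tables, RefSeq GRCr8 names were taken through the Entrez identifier. Python 3.11.15, numpy 2.4.6, scipy 1.17.1, pandas 2.3.3, numba 0.67.0 and matplotlib 3.10.9 were used.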

Additional observations from a re-analysis of the deposited data

How the results depend on the processing

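The counts of called members stayed at 0 in axons, in soma and for the difference when p-values were adjusted over genes with a mean of at least 10. In axons Fosb, Arc, Ier2 and Dusp1 did not reach that mean. With a threshold of 0.1 the counts in soma and for the difference stayed at 0. The count for the difference also stayed at 0 when the median fold change of genes with somatic means from 100 upward was subtracted. The shifts were 0.44 in axons and -0.06 in soma. In axons the threshold of 0.1 and the subtraction could not call a member, because both used only genes with a deposited adjusted p. Adjustment over every gene with reads, tried for axons and soma, also gave 0. The 7 members with both shallow somatic libraries above both deep ones stayed 7 when scaled by recovered reads, an alternative chosen after seeing the data. Calls were not refitted without a library: the recovered libraries are matched to no labelled sample and were put in no test between treatments. For the ratio of sides from recovered reads (mean of log2 normalized counts plus 1), leaving out a library changed the sign of 0 to 3 of the 10 members in axons and of 0 to 7 in soma, the latter without the shallow positive-side library. Without the deep negative-side library 5 changed sign in soma, and without either of the other somatic libraries 0. For the axonal over somatic level, leaving out a library changed the sign of 1 to 3 members, and scaling to genes with reads in both tables that of 1, Jun (0.09). A pseudocount of 0.5 changed 0 signs of the ratio of sides. The ratio of sides was 0.39 for Arc in axons, against a log2 fold change of -0.22 in the authors' deposited table, so the sign for Arc also depends on how libraries are averaged. No paired analysis was possible because the tables carry no replicate number that would pair samples by label. With libraries of the same number set against each other, an order taken from size factors and not from labels, the sign changed for 4 members in axons with number 1 alone (Fos, Junb, Egr1, Nr4a1) and 2 with number 2 (Arc, Npas4), and in soma for 7 in the deep pair and 1 in the shallow pair (Jun). Depth limits all of this: members rest on 21 to 121 reads in axons and 10 to 476 in soma.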
